A study of Homo sapiens with 4 samples.

Results

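The mucins and trefoil factors described here are 10 genes for secretory products of the gastric and intestinal epithelium. They are the secreted gel-forming mucins MUC2, MUC5AC, MUC5B and MUC6, the membrane mucins MUC1, MUC4 and MUC13, and the trefoil factors TFF1, TFF2 and TFF3. They were chosen by gene symbol from the 23362 entries of the expression table, where each of the 10 symbols occurs on a single entry. RNA was taken from MKN28 cells, an established human gastric adenocarcinoma line, and RNAseq was performed on 1 library for each of 4 groups. All groups carried a retroviral tet-on construct. The construct encoded luciferase in the Luc control, the full protein in KIAA1324 WT, a protein with 3 N-glycosylation sites changed in 3NQ, and a protein lacking its transmembrane domain in ΔTM. The sources used here do not state whether the cells received doxycycline for this experiment. KIAA1324 is a transmembrane protein studied as a tumor suppressor in gastric cancer, and the study asked which transcripts depend on its N-glycosylation.

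Mucins are large glycoproteins whose repeated serine and threonine residues carry dense O-linked glycans. The gel-forming mucins are packed in granules, released and hydrated into mucus, and in the stomach MUC5AC is made by surface cells and MUC6 by gland cells, whereas MUC2 is the mucin of intestinal goblet cells. Membrane mucins stay anchored at the apical surface, where they form part of the glycocalyx and can signal through their cytoplasmic tails. Trefoil factors are small, cysteine-rich peptides secreted with mucins, and they promote the closure of epithelial wounds. TFF1 normally accompanies MUC5AC, TFF2 accompanies MUC6, and TFF3 accompanies MUC2.

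In these MKN28 cells, MUC1 was the single member with appreciable RNA. It lay above an FPKM of 1 in every library. Ratios were tested for the 11769 entries that reached this level in at least 1 library, where FPKM is the number of fragments scaled to transcript length and to the mapped fragments of the library. Another 6 members, all remaining mucins, were above 0 but below 1, and all 3 trefoil factors were listed at 0 in every library. MUC1 was lowest in WT, 1.41-fold below Luc after 1 was added to each FPKM. This difference was smaller than the 1.5-fold set for a call, and no library had a replicate, so the differences given here have no replicate check and no p-values.

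The promoters of 4 members were in the RefSeq table used, and they are shown here so that the promoter of the expressed member can be read beside those of members with little RNA. MUC5AC, MUC5B, MUC6, TFF1, TFF2 and TFF3 had no entry. Each run gives 250 bases before and 50 bases after the transcription start, 5′ to 3′ on the strand of the gene. Capitals mark matches, on either strand, to 3 motifs: TATAA (the core of a TATA box), GGGCGG (the GC box) and TGANTCA. The last is a loose form of the AP-1 site, which has C or G at its middle base. MUC1 is the first of a pair of RefSeq entries whose starts lie a few bases apart.
MUC1: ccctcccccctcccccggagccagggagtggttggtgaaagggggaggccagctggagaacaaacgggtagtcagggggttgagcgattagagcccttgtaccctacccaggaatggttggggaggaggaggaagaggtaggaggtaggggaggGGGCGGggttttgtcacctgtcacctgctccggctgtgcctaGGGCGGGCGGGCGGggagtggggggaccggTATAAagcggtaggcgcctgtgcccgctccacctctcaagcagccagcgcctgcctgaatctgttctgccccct
MUC2: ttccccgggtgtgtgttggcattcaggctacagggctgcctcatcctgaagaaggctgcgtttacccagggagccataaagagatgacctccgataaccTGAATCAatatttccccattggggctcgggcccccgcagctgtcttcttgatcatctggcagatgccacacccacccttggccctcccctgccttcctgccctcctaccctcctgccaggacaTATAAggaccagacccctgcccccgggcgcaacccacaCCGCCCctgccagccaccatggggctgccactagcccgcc
MUC4: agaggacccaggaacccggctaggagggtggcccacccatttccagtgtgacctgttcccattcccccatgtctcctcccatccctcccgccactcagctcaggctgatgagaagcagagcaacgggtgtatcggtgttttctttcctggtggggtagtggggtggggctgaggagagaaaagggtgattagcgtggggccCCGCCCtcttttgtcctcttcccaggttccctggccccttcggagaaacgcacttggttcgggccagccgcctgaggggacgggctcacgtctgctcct
MUC13: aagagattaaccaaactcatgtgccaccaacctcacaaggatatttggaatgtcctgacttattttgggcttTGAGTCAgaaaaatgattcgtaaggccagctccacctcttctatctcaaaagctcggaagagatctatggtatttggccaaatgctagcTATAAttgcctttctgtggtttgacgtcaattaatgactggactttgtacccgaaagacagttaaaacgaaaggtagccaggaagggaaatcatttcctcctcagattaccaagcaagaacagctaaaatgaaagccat
These coordinates are on GRCh38.p14, whereas the expression table is on GRCh37. The MUC1 run lies at chr1:155192866-155193165 on the minus strand, the MUC2 run at chr11:1074624-1074923 on the plus strand, the MUC4 run at chr3:195811880-195812179 on the minus strand and the MUC13 run at chr3:124934702-124935001 on the minus strand. The MUC1 promoter held TATAA 24 bases before the start and 4 matches to GGGCGG, of which 3 lie in an overlapping run. The MUC2 promoter held TATAA 28 bases before the start, with 1 match to GGGCGG. The MUC4 promoter held 1 GGGCGG and no TATAA, and the MUC13 promoter held TATAA 89 bases before the start. TGANTCA matched once each in MUC2 and MUC13. The MUC13 match, TGAGTCA, is an AP-1 site, whereas the MUC2 match, TGAATCA, is not. Over all 35116 promoters in the table, 20.4% held TATAA, 45.0% held GGGCGG and 7.71% held TGANTCA. The G and C content was 65.7% in MUC1, 62.0% in both MUC2 and MUC4, and 41.0% in MUC13. The number of CpG dinucleotides was 13, 9, 12 and 5, in the order MUC1, MUC2, MUC4 and MUC13, against a median of 14 over all promoters. No methylation or binding was measured in this series, so the sequences bear on no difference between libraries.

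KIAA1324 itself was read first, as a check of the labels. The FPKM rose from 2.86 (Luc) to 11185 (WT) and 8197 (3NQ), and it was listed at 0 in the library labelled ΔTM. That value goes against the label of a library said to express a deleted KIAA1324, and it is also below the value of Luc. An FPKM listed at 0 can also be a failed estimate. Whether the label, the construct or the estimate accounts for the 0 was not tested. Each comparison with this library is therefore given for the library labelled ΔTM. The epithelial markers EPCAM, CDH1, KRT8, KRT18 and KRT19 were all above 1, with a summed FPKM of 13450 (Luc), 7741 (WT), 10125 (3NQ) and 11708 (library labelled ΔTM). Of 10 markers of gastric chief, parietal and endocrine cells, 5 were listed at 0 in all libraries and GAST (gastrin) was the single one to reach 1, at 0.712 to 1.85. Of 9 markers of blood, vessel and stromal cells, 8 were in the table and COL1A1 was the single one to reach 1, at 12.1 to 15.3. The table holds no counts, but low values rise in steps, and the step expected of 1 fragment placed the libraries at 1, 0.969, 1.12 and 0.983 times the depth of Luc, in the order Luc, WT, 3NQ and the library labelled ΔTM. Genes with a transcript of 1800 to 3000 bases put the apparent depth at 19800000 to 22900000 fragments, and short olfactory receptor genes put it at 12800000 to 14700000. These depths are estimates. Only longer genes whose implied depth lay between a chosen lower and upper bound were kept, and only olfactory receptor genes above a chosen lower cut. The depths are therefore partly set by these bounds and are not an independent measure. All fragment numbers, counting errors and trefoil factor limits given here rest on these depths. The fragment numbers cover counting error only. The higher estimate was used for the mucins, and the lower for the trefoil factors, whose transcripts are short.

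The membrane mucins were the members with the most RNA. MUC1 (ENSG00000185499) lies on GRCh37 at chr1:155158300-155162707, minus strand, and encodes a shed and signalling mucin of the apical membrane. Its FPKM was 12.7 (Luc), 8.69 (WT), 12.7 (3NQ) and 14.0 (library labelled ΔTM). WT was therefore the lowest library, and the other 3 lay close to each other. Compared with all entries of the table, the level of MUC1 was above that of 71.2% (Luc), 66.6% (WT), 71.9% (3NQ) and 73.3% (library labelled ΔTM).

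All log2 ratios and folds here are on the scale of log2(FPKM + 1), unless another pseudocount is named. On this scale the differences of MUC1 from Luc were -0.50 (WT), 0.0075 (3NQ) and 0.13 (library labelled ΔTM). These 3 comparisons share the Luc library. None reached 1.5-fold (0.58 on this scale), so that 0 of the 1 member tested was called in each, where 6.7% of all 11769 tested genes were called (WT), 4.34% (3NQ) and 3.11% (library labelled ΔTM). In WT, 5.31% of tested genes had a ratio to Luc as low as that of MUC1, and the median ratio of all genes was -0.0049.

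MUC1 in WT was 1.42-fold lower than in 3NQ (log2 ratio -0.50) and was not called, where 4.47% of tested genes were called. Here 2.20% of tested genes were as low as MUC1. Against the library labelled ΔTM, MUC1 in WT was 1.54-fold lower (log2 ratio -0.63), just past the threshold, and it was the 1 member called in a comparison where 7.16% of tested genes were called. In that comparison 2.43% of tested genes had a ratio as low. WT against the library labelled ΔTM was added after the values were seen, and it rests on the library whose KIAA1324 value goes against its label. Against the mean of 3NQ and the library labelled ΔTM, with the same limit, the log2 ratio of MUC1 in WT was -0.57.

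The MUC1 values rest on enough fragments for the counting error to be given. At the estimated depth, and with the longest of its 18 coding transcripts (1811 bases), they stand for about 478 (Luc), 312 (WT), 529 (3NQ) and 536 (library labelled ΔTM) fragments, with counting errors of 4.32% to 5.66%. With the shortest transcript (516 bases) the errors would be 8.09% to 10.6%. The difference of WT from the other libraries was larger than these errors, which leave out the variation between cultures and library preparations. In RNA from whole cultures, fewer MUC1-expressing cells and less MUC1 RNA per cell cannot be told apart.

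MUC1 was the single member whose span overlaps another entry. The overlap is 1448 bases with KRTCAP2 (ENSG00000163463), a subunit of the oligosaccharyltransferase complex that carries out N-glycosylation, on the same strand. In GENCODE release 44 the exons of MUC1 and KRTCAP2 share 0 bases. The FPKM were computed on another annotation (Ensembl release 72), whose exons were not compared, so sharing of reads between these genes was not tested. KRTCAP2 had an FPKM of 44.7 (Luc), 45.9 (WT), 51.1 (3NQ) and 43.4 (library labelled ΔTM). Its ratio to Luc in WT was 0.037, so the overlapping gene was not lower in WT. The epithelial keratins KRT8 and KRT18 were lowest in WT, as MUC1 was. Both were also below Luc in 3NQ (log2 ratios -0.42 and -0.46), where MUC1 was level with Luc (0.0075). KRT19 was lowest in 3NQ (FPKM of 478, with 534 in WT). KRT8 had an FPKM of 8501 (Luc), 4510 (WT), 6362 (3NQ) and 6912 (library labelled ΔTM), and KRT18 had 3684, 2115, 2673 and 3610 in the same order. Against Luc in WT, KRT8 and KRT18 were called lower (log2 ratios -0.91 and -0.80), whereas EPCAM, CDH1 and KRT19 were not, and the median of the 5 markers was -0.22. Whether the keratins and MUC1 were lower for a shared reason was not tested.

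**Figure D1:**
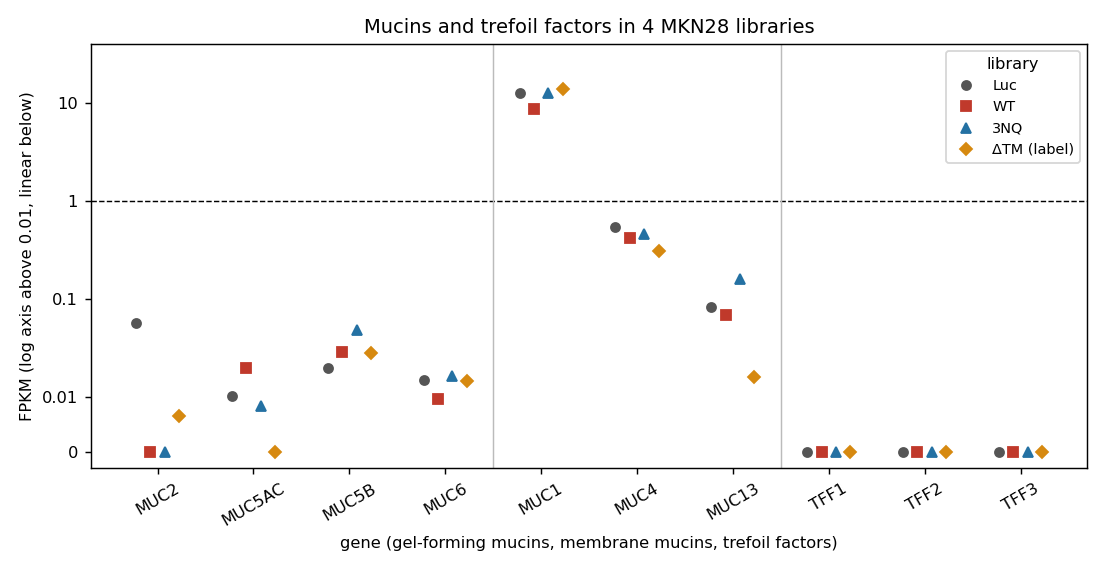
FPKM of the 10 mucins and trefoil factors in the 4 MKN28 libraries (1 point per library, axis logarithmic above 0.01 and linear below), with a dashed line at an FPKM of 1. MUC1 lies between 8.69 and 14.0 with WT lowest, the other mucins lie below 1, and all trefoil factor points lie at 0.

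MUC4 (chr3:195473636-195539148, minus strand) encodes a very large membrane mucin that binds the receptor ERBB2. Its FPKM was 0.551 (Luc), 0.423 (WT), 0.467 (3NQ) and 0.310 (library labelled ΔTM). Luc was the highest library and the library labelled ΔTM the lowest, with a ratio of 1.78 between their FPKM, without a pseudocount. The ratios to Luc were -0.12 (WT), -0.08 (3NQ) and -0.24 (library labelled ΔTM). MUC4 stayed under the FPKM of 1 needed to be tested, and these ratios are understated by the pseudocount of 1. The values stand for about 110 to 192 fragments with its longest transcript of 16756 bases, and for 25.2 to 43.9 with its shortest coding transcript of 3829 bases.

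MUC13 (chr3:124624289-124672663, minus strand) encodes a membrane mucin of the gut surface. Its FPKM was 0.0826 (Luc), 0.0694 (WT), 0.160 (3NQ) and 0.0163 (library labelled ΔTM). The FPKM of the highest library, 3NQ, was 9.82 times the lowest, without a pseudocount. At the estimated depth this sets only about 10.5 fragments against 0.993, with the longest MUC13 transcript of 2876 bases. The counting error alone was 30.8% of the 3NQ value and 100% of the value in the library labelled ΔTM. With the shortest transcript (587 bases) the 3NQ value would rest on 2.15 fragments, with an error of 68.2%. No replicate covers the remaining variation.

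The gel-forming mucins were all close to 0. MUC5AC (chr11:1151580-1222364, plus strand), the mucin of gastric surface cells, had an FPKM of 0.0103 (Luc), 0.0198 (WT) and 0.0084 (3NQ), and was listed at 0 in the library labelled ΔTM. MUC6 (chr11:1012821-1036706, minus strand), the mucin of gastric glands, had 0.0152 (Luc), 0.00961 (WT), 0.0165 (3NQ) and 0.0146 (library labelled ΔTM). Thus neither gastric mucin reached an FPKM of 0.02 in any library. MUC2 (chr11:1074875-1104419, plus strand), the mucin of intestinal goblet cells, had 0.0566 in Luc and 0.00662 in the library labelled ΔTM, and was listed at 0 in WT and 3NQ. MUC5B (chr11:1244296-1283406, plus strand), the main mucin of airway and salivary glands, had 0.0198 (Luc), 0.0287 (WT), 0.0486 (3NQ) and 0.0285 (library labelled ΔTM).

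These values stand for a handful of fragments. With the longest transcripts of MUC6 (8016 bases) and MUC5B (17911 bases), MUC6 would rest on 1.53 to 3.04 fragments and MUC5B on 7.38 to 20.0. With their shortest transcripts (404 and 461 bases) all values of both would fall below 1 fragment. With its longest transcript (4209 bases) MUC2 would rest on 4.96 fragments in Luc, with a counting error of 44.9%, and on 0.59 in the library labelled ΔTM. MUC5AC (1917 bases) would rest on 0.369 to 0.751 fragments where it was above 0. Values below 1 fragment show that these numbers are rough. The annotated lengths of MUC5AC and MUC2 are short beside the 17911 bases of MUC5B. Whether these annotated transcripts are complete was not tested, and longer ones would raise the fragment numbers. The summed FPKM of the 4 gel-forming mucins was 0.102 (Luc), 0.0581 (WT), 0.0735 (3NQ) and 0.0497 (library labelled ΔTM). Luc was highest through its MUC2 value. For MUC5B the counting errors were 22.4% to 36.8% with the longest transcript and 140% to 229% with the shortest (461 bases). No replicate covers the remaining variation.

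The trefoil factors were listed at 0 in all 4 libraries. TFF1 lies at chr21:43782391-43786703, TFF2 at chr21:43766466-43771237 and TFF3 at chr21:43731777-43735761, all on the minus strand. At the estimated depth, a count of 0 allows up to 3 fragments, which is an FPKM of 0.415 to 0.478 for TFF1, 0.339 to 0.390 for TFF2 and 0.235 to 0.271 for TFF3, depending on the library. An FPKM listed at 0 can also be a failed estimate. All 3 trefoil factors have a longest transcript of 450 to 900 bases. Of 928 coding genes in this range, 322 (34.7%) reached an FPKM of 1 and 356 (38.4%) were at 0 throughout. Over all entries of the table, 50.4% reached 1 and 20.2% were at 0 throughout. Of the 21 ribosomal protein genes among the 928, 19 reached 1, and RPL10L and RPL39L did not. That count cannot show how short transcripts at low levels are listed. Whether short length contributed to the zeros of the trefoil factors was not tested.

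In order of mean FPKM the members ran from MUC1 (12.0) and MUC4 (0.438) through MUC13 (0.082), MUC5B (0.0314), MUC2 (0.0158), MUC6 (0.0140) and MUC5AC (0.00961) to the trefoil factors. The 4 values of MUC1 did not overlap those of MUC4, and those of MUC4 did not overlap those of MUC13. From MUC13 downward, the values of neighbours in this order overlapped across libraries. Over the whole table, 6883 entries (29.5%) were above 0 but below 1 in every library and 4710 (20.2%) were at 0 throughout, so that low levels as such were common. The ratios of all members except MUC1 to Luc stayed between -0.24 and 0.10 with the pseudocount of 1, which holds low values near 0. With a pseudocount of 0.1 they ran from -0.67 (MUC4, library labelled ΔTM) to 0.51 (MUC13, 3NQ). MUC13 in the library labelled ΔTM (-0.65) and MUC2 in WT and 3NQ (-0.65 each) then also lay past 1.5-fold, farther from 0 than MUC1 in WT (-0.54), but at levels too low to be tested.

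**Figure D2:**
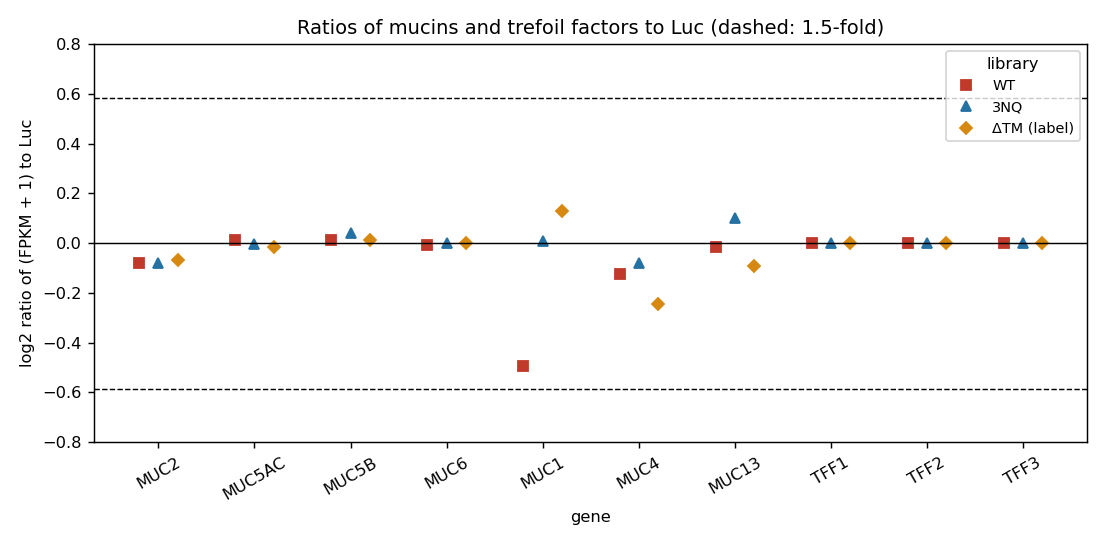
Log2 ratio of (FPKM + 1) to Luc for the 10 genes in WT, 3NQ and the library labelled ΔTM, with dashed lines at 1.5-fold. No point lies outside the lines, and MUC1 in WT, at -0.50, lies farthest from 0 with this pseudocount of 1.

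Both clusters of members held little or no RNA, and their nearest neighbours on either side were expressed. The gel-forming mucins lie within 271 kb on chromosome 11, in the order MUC6, MUC2, MUC5AC and MUC5B. Of 19 other entries within 250 kb of that span, 16 reached an FPKM of 1 and 2 were at 0. AP2A2, a subunit of the endocytic adaptor AP-2 whose entry ends 582 bases from MUC6, had an FPKM of 46.5 (Luc), 45.1 (WT), 41.9 (3NQ) and 45.8 (library labelled ΔTM). On the other side, TOLLIP, a Toll-interacting adaptor 12195 bases beyond MUC5B, had 22.8, 28.5, 24.3 and 21.9 in the same order. Thus the step from expressed to nearly silent fell between MUC6 and AP2A2 on one side and between MUC5B and TOLLIP on the other, in each of the 4 libraries. RP13-870H17.3, the single other entry inside the span, was listed at 0 throughout. TSPAN4, a tetraspanin, was the 1 neighbour called, lower in WT (FPKM of 19.7 for Luc and 11.1 for WT, log2 ratio -0.77), and 0 neighbours were called in 3NQ or the library labelled ΔTM.

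The trefoil factors lie within 54.9 kb on chromosome 21. Of 9 other entries within 250 kb, 4 reached an FPKM of 1 and 1 was at 0. TMPRSS3, a membrane serine protease 5296 bases from TFF1, had an FPKM of 36.8 (Luc), 27.6 (WT), 36.1 (3NQ) and 37.4 (library labelled ΔTM). ABCG1, a cholesterol exporter 14423 bases from TFF3, had 3.12, 4.39, 1.96 and 2.65 in the same order. TMPRSS3 was lowest in WT (log2 ratio to Luc -0.40), and 0 neighbours of the trefoil factors were called against Luc in any library.

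**Figure D3:**
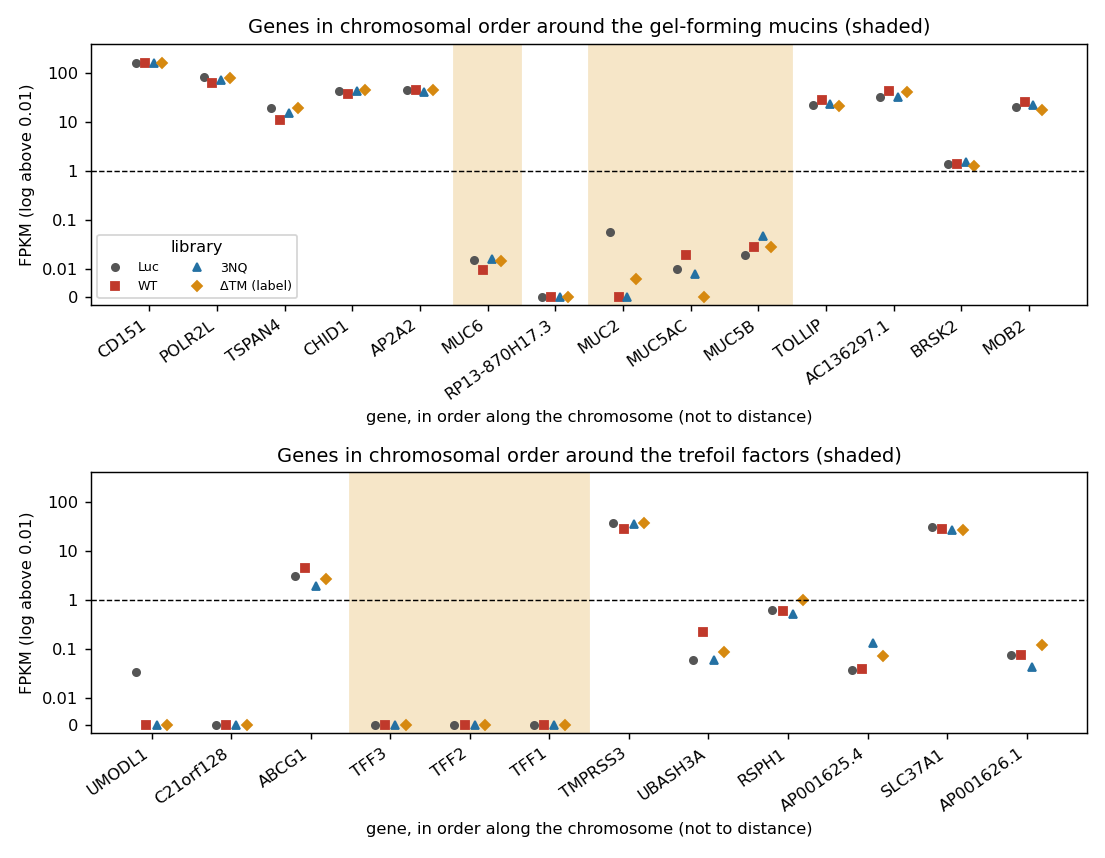
FPKM in the 4 libraries (logarithmic above 0.01, linear below) of genes in chromosomal order around the gel-forming mucins (top) and the trefoil factors (bottom), with members shaded and a dashed line at an FPKM of 1. AP2A2 (41.9 to 46.5), TOLLIP (21.9 to 28.5) and TMPRSS3 (27.6 to 37.4) flank members that lie below 0.06 or at 0.

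The rest of the mucus pathway was read from 7 lists with 106 genes in the table, of which 60 reached an FPKM of 1. Against Luc, 4 of these 60 genes (6.67%) passed the threshold when WT was compared, 2 (3.33%) when 3NQ was compared and 1 (1.67%) for the library labelled ΔTM. These shares lie near or below the 6.7%, 4.34% and 3.11% of all tested genes. Of the 4 genes called in WT, 3 reached an FPKM of 1 in WT alone, and with a mean FPKM of at least 1 required instead, a choice made after seeing the data, the count was 1.

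Of 12 other mucin genes, 3 reached an FPKM of 1 and none was at 0 throughout. MUC15, a membrane mucin, reached 1.11, MUC20, a membrane mucin that binds the receptor MET, 1.30, and OVGP1, the oviductal glycoprotein, 1.43. All 3 thus stayed well below MUC1. None was called, and the median ratio was 0.17 (WT), -0.09 (3NQ) and -0.26 (library labelled ΔTM). Proteins that fold mucins or are released with them were low as well. Of 15 such genes, 7 were at 0 throughout and PSCA was the single one to reach 1. AGR2, the disulfide isomerase needed to fold gel-forming mucins, lay at 0.170 to 0.194, and GKN2, a gastrokine of surface cells that binds TFF1, was listed at 0. PSCA, a small surface protein of the gastric epithelium, had an FPKM of 28.9 (Luc), 26.7 (WT), 18.0 (3NQ) and 31.2 (library labelled ΔTM), and was called lower in 3NQ (log2 ratio -0.65).

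Among 19 transcription factors known from secretory and gastrointestinal lineages, 9 reached an FPKM of 1 and none was called against Luc. KLF4, a factor of goblet cell maturation, lay at 44.1 to 57.2, XBP1, which expands the secretory apparatus, at 83.5 to 116, and EHF, an epithelial ETS factor, at 147 to 184. By contrast, SPDEF, which directs goblet cell differentiation and mucin expression, stayed at or below 0.114, ATOH1, the determinant of the intestinal secretory lineage, was listed at 0, and SOX2 and GATA4, factors of the stomach, stayed at or below 0.117 and 0.06. CDX2, the intestinal factor, lay at 0.832 to 1.96. The rest of the 9 were GATA6 (0.928 to 1.31), GFI1 (1.18 to 1.72), FOXA1 (2.66 to 3.12), CREB3L4 (6.76 to 8.76) and ELF3 (20.9 to 23.7). The median ratio of the 9 was 0.13 (WT), 0.037 (3NQ) and 0.0092 (library labelled ΔTM).

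**Figure D4:**
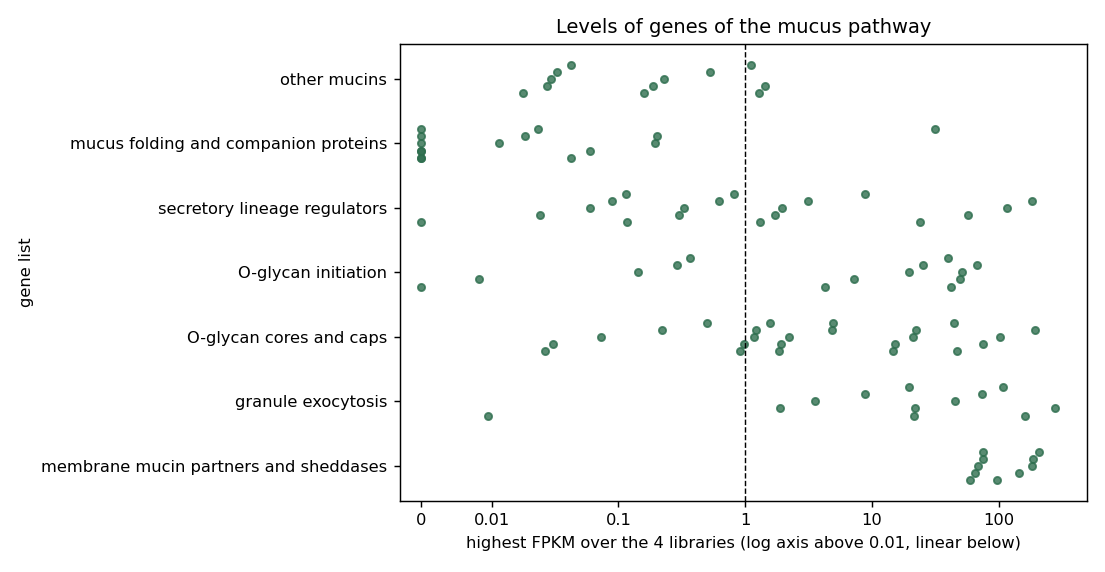
Highest FPKM over the 4 libraries (logarithmic above 0.01, linear below) of each gene of the 7 mucus pathway lists, 1 point per gene, with a dashed line at an FPKM of 1. Other mucins (3 of 12) and folding and companion proteins (1 of 15) mostly lie below the line, whereas membrane mucin partners (10 of 10) and granule exocytosis genes (11 of 12) mostly lie above it.

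Most, but not all, of the listed enzymes that put O-glycans on mucins reached an FPKM of 1. Of 14 GALNT genes, which attach the first sugar, 9 reached an FPKM of 1, none was called, and the median ratio was 0.003 (WT), -0.11 (3NQ) and -0.08 (library labelled ΔTM). Of 24 genes for core structures, extensions and caps, 17 reached 1, and 3 were called higher in WT. GCNT1, the core 2 branching enzyme, had 0.635 (Luc), 1.57 (WT), 0.465 (3NQ) and 0.407 (library labelled ΔTM). GCNT3, the mucin-type branching enzyme that makes core 2 and core 4, had 0.167, 1.18, 0.475 and 0.522 in the same order, and ST6GALNAC2, a sialyltransferase, had 0.407, 1.21, 0.611 and 0.472. For all 3 enzymes WT was the highest library, with log2 ratios to Luc of 0.65, 0.90 and 0.65. All 3 reached the FPKM of 1 needed to be tested in WT alone, so that the filter itself favoured a higher value in WT. The median of the 17 was 0.07 (WT), -0.05 (3NQ) and -0.039 (library labelled ΔTM).

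Of 12 genes for granule exocytosis, 11 reached an FPKM of 1. SYTL4, a granule-docking effector of RAB27, had an FPKM of 169 (Luc), 78.3 (WT), 166 (3NQ) and 275 (library labelled ΔTM). It was called lower in WT (2.15-fold, log2 ratio -1.10) and higher in the library labelled ΔTM (1.62-fold, log2 ratio 0.70), and 3NQ lay beside Luc. The libraries thus ranked with WT lowest and the library labelled ΔTM highest, as they did for MUC1, TSPAN4, TMPRSS3 and GFI1. The share of all tested genes with this ranking was not counted. The list median was 0.10 (WT), -0.037 (3NQ) and -0.008 (library labelled ΔTM).

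Partners and sheddases of membrane mucins were all expressed, with 10 of 10 genes above an FPKM of 1. ERBB2, the receptor bound by MUC4, had 59.5 (Luc), 57.2 (WT), 50.9 (3NQ) and 43.4 (library labelled ΔTM), and ADAM17, a sheddase of MUC1, had 67.9, 68.8, 68.5 and 67.4 in the same order. ADAM17 was thus nearly level over the libraries. The other proteases of the list, ADAM9 and MMP14, were lower in WT than in Luc, but not called. ADAM9 had 208, 177, 178 and 195 in the same order, and MMP14 had 75.5, 66.7, 57.3 and 66.5. These are RNA levels, and shedding itself was not measured. ERBB3, a partner of ERBB2, was the 1 gene called, lower in 3NQ (FPKM of 74.8 in Luc and 48.8 in 3NQ, log2 ratio -0.61). After rescaling by the median of ratios its ratio was -0.57, and this call was lost. The list median was -0.073 (WT), -0.22 (3NQ) and -0.15 (library labelled ΔTM), where the medians of all tested genes were -0.0049, -0.038 and -0.06.

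**Figure D5:**
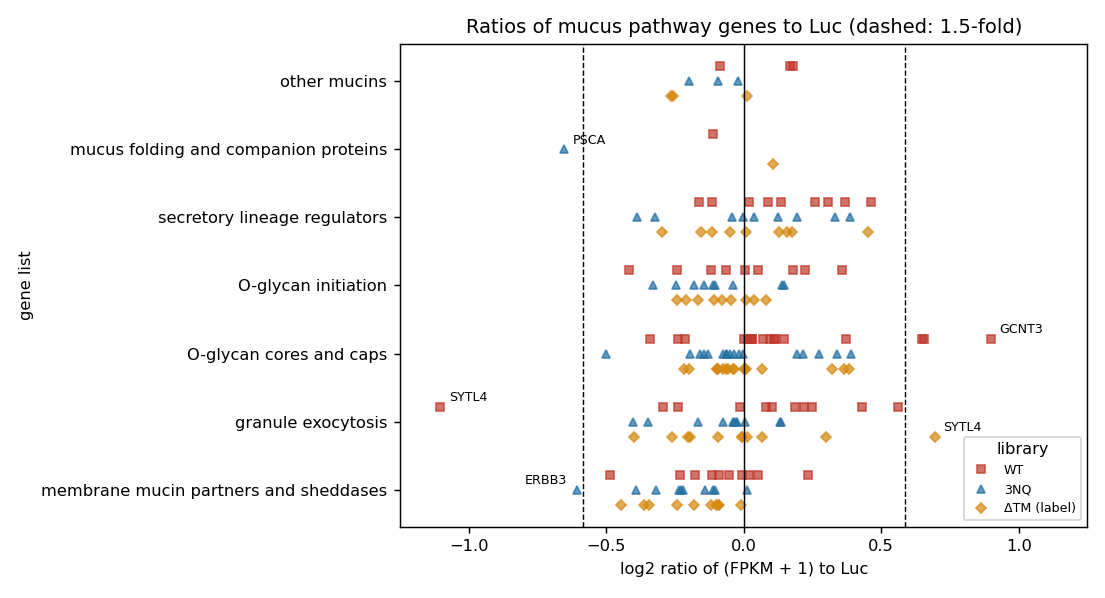
Log2 ratio of (FPKM + 1) to Luc for the 60 pathway genes that reached an FPKM of 1, by list and library, with dashed lines at 1.5-fold. Most points lie between the lines, and SYTL4 lies below them in WT (-1.10) and above them in the library labelled ΔTM (0.70).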

How the data were processed

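Poly(A) RNA of 4 MKN28 cultures was sequenced as 1 library per group after preparation with a TruSeq kit. The authors aligned reads to GRCh37 using Tophat, and Cufflinks 2.1.1 gave an FPKM per Ensembl gene (release 72). Non-coding regions were masked, and corrections were made for fragment bias and for reads with several matches. The deposited FPKM are thus scaled for library size and transcript length by the authors. Cufflinks splits shared reads between similar genes, which can bring repeat-rich or duplicated genes close to 0. The deposited table holds no counts and no p-values.

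Log2 ratios of FPKM + 1 came from numpy 2.4.6 and pandas 2.3.3 under Python 3.11.15, and figures from matplotlib 3.10.9. Genes that reached an FPKM of 1 in any library were tested against a threshold of 1.5-fold in either direction, since 1 library per group permits no test. The pseudocount understates the ratios of low genes. The members and lists were chosen with earlier results of these data known, and the lists were written from general knowledge.

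The genes named were the 10 members, KIAA1324, the markers, up to 4 genes per list with the largest ratios past the threshold, and genes within 250 kb of a cluster of members. The genes with the profile nearest to a member were to be named only for members called against Luc, of which there were 0. KRTCAP2 and uncalled pathway genes were named after their values were seen. Depth was estimated from low non-zero FPKM, within chosen windows of transcript length and chosen bounds on the implied depth, which partly set the result. The genes used were those with a single annotated transcript, and olfactory receptor genes picked by name and by a span below 1100 bases. Transcript lengths came from GENCODE release 44 on GRCh37. Promoters came from RefSeq (GRCh38.p14). The results were also computed at 2-fold, with pseudocounts of 0.1 or 5, without the filter or with a minimum FPKM of 5, after median-of-ratios or upper-quartile scaling, with repeated symbols summed, and against the average of 3NQ and the library labelled ΔTM.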

Additional observations from a re-analysis of the deposited data

How the results depend on the processing

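The count of members called against Luc stayed at 0 under every alternative run. The log2 ratio of MUC1 ranged from -0.54 to -0.37 in WT against Luc and from -0.55 to -0.37 in WT against 3NQ, and it was negative throughout. In WT against the library labelled ΔTM, a comparison added after seeing the data, it ranged from -0.68 to -0.47, and the call of 1 member became 0 at a 2-fold threshold and 0 with a pseudocount of 5.

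The count of pathway genes called in WT against Luc, 4 as reported, was 1 at a 2-fold threshold, 1 with a pseudocount of 5, 1 with an FPKM of at least 5 and, added after seeing the data, 1 with a mean FPKM of at least 1. In 3NQ against Luc the count of 2 became 0 at a 2-fold threshold, 5 with a pseudocount of 0.1, 0 with a pseudocount of 5 and 1 after rescaling by the median of ratios, where ERBB3 was lost. In the library labelled ΔTM the count of 1 became 0 at a 2-fold threshold and 3 with a pseudocount of 0.1. None of the 7 pathway calls changed sign in the 70 values computed, the reported ones included. With a pseudocount of 0.1, MUC4 and MUC13 in the library labelled ΔTM and MUC2 in WT and 3NQ passed 1.5-fold against Luc (-0.67, -0.65, -0.65 and -0.65), but below the FPKM tested. No paired analysis was possible because each group holds 1 library, and no library could be left out for the same reason. Depth limits the gel-forming mucins, MUC13 and the trefoil factors, whose values rest on few fragments or none.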
